A study of Morella rubra with 12 samples.

Results

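Transcript levels at 70 days after flowering were compared with those at 55 days in fruits of Baidongkui (BDK), a strain of Chinese bayberry (Morella rubra). Its fruits are pink by the colour label and pink-white by the series' title. The 3 libraries of BDK fruit at 70 days (labelled stage 2) were set against the 3 libraries of BDK fruit at 55 days (stage 1), 6 of the 12 libraries of the series. The genes compared were all those with at least 1 FPKM in 3 or more of these 6 libraries, 19815 of the 119701 genes listed. FPKM is the number of fragments counted on a gene, divided by the gene's length and by the size of the library. Both stages are fruits of the same strain, frozen on dry ice before RNA was taken with Trizol. The remaining libraries, 3 of ripe BDK fruit and 3 of ripe fruit of Dongkui (DK), a red cultivar labelled black, both at 85 days, entered the model for its estimate of spread. Neither treatment nor genetic change is named for any group. Whether the 3 libraries of a stage stem from different trees, or from different fruits, is not in the labels. The p-values therefore measure only how far these libraries spread, which may be technical.

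Chinese bayberry bears stone fruits whose edible flesh is made of many juice-filled segments that grow out of the fruit wall around a hard stone. As the fruit develops, growth of the stone and wall gives way to enlargement of the flesh, with sugars building up, organic acids being used and, in red cultivars, anthocyanin pigments forming late. Such stages of fleshy fruits are known for large shifts in which transcripts are most abundant. The deposited gene IDs have the form of a transcript assembly and carry no names, so the genes are described by ID and by level, and what each encodes was not analysed here. Tissue markers could not be looked up for the same reason. In bulk RNA of fruits, fewer cells of a type and less RNA per cell cannot be told apart.

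The 6 libraries listed between 36243 and 48737 genes above 0, and their summed FPKM ran from 1005812 to 1219278. The values are FPKM without read counts, so how deeply each library was sequenced is unknown. Its relative depth, estimated from the step size of low values, was 1.03 to 1.14 at 70 days and 0.881 to 0.942 at 55 days, so the younger libraries were a little shallower. The 55-day replicate 3 stood apart from its group. It listed 8884 genes above 0 that no other of the 12 libraries listed, and these held 10.6% of its summed FPKM, against 1.98% to 6.07% for such genes in the other 5 libraries. A split of the libraries that crosses the labels was taken from detection. It is the most frequent pattern among genes above 0 in exactly 6 of the 12 libraries, so sets of equal size were fixed in advance. This pattern had 876 genes, its reverse 120 and the next most frequent 80. All 55-day libraries, the 70-day replicate 1 and the 85-day BDK replicates 1 and 2 form the first set, and the 6 others the second. Of the genes compared, 261 were above 0 in every library of the first set and at 0 in every library of the second, and 107 of them were called lower at 70 days, where 33.5% of all genes compared were. These 261 are among the 876 genes that defined the split, so they describe it and are no separate evidence for it. With the 70-day replicates 2 and 3 at 0, the pattern leaves lower as the only direction a call could take. The filter admits no gene of the reverse pattern, since just 2 of the 6 libraries compared belong to the second set.

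Most of the genes compared were called as different between the 55-day and the 70-day libraries. Of the 19815 genes, 11943 (60.3%) were called at an adjusted p below 0.05 by limma, 5304 higher (26.8%) and 6639 lower (33.5%) at 70 days. For 66.9% of the genes the 3 libraries of 70 days and the 3 of 55 days did not overlap. Most changes were moderate. The median absolute change was 0.55 on the log2(FPKM + 1) scale, beside a median standard error of 0.15, and 7101 of the called genes changed less than 2-fold. Changes of at least 2-fold were called for 4842 genes (24.4%), 1810 higher and 3032 lower. At least 8-fold changes were reached by 155 higher and 385 lower genes. Changes of 64-fold or more were reached by 9 higher and 25 lower genes. The filter itself fixed part of this count, since 455 genes passed it through the 70-day libraries alone and 1201 through the 55-day libraries alone, and such genes had to differ. Among the 15039 genes with at least 1 FPKM in all 6 libraries, 4569 were called higher and 4878 lower at 70 days (62.8% called). All 55-day libraries lie in the first set of the library split, so stage and split are partly confounded. With the split as a term in the model 10125 genes (51.1%) were called, 9900 of them also among the 11943 and with matching direction. In the libraries of the first set alone, with 1 library at 70 days whose spread is taken from the others, 6801 genes were called.

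**Figure D1:**
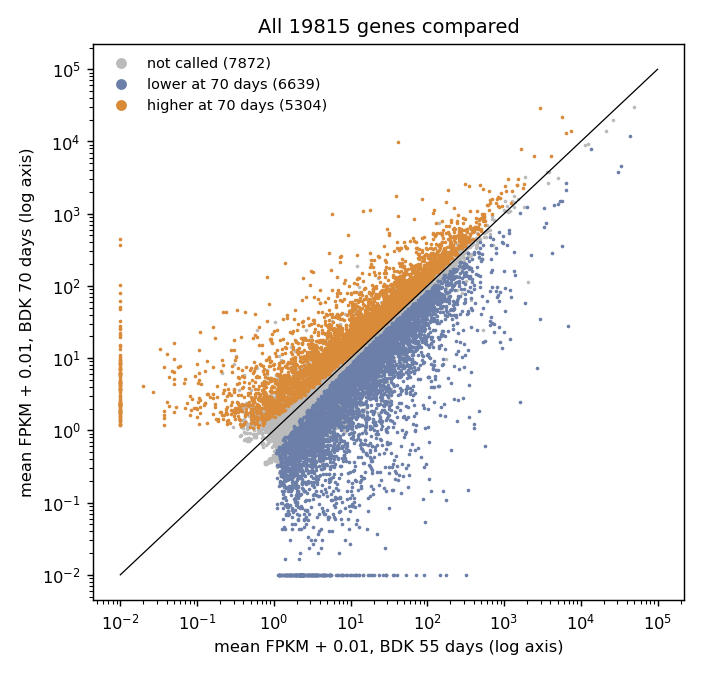
Mean FPKM (plus 0.01) of each of the 19815 genes in the 3 libraries of 70 days (vertical, log axis) against the 3 of 55 days (horizontal, log axis), coloured by limma's call. Called genes fan out on both sides of the line of equal level, and the points along the left and lower edges are genes listed at 0 in all 3 libraries of a stage.

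The transcripts at the very top of the list were partly replaced. Of the 50 genes with the highest mean at each stage, 29 were common to both, and the share was much the same for longer lists, with 60 of the top 100 and 308 of the top 500 in common. Single libraries showed that this exceeds the spread between replicates. Pairs of 70-day libraries shared 44 of their top 50, pairs of 55-day libraries 45 or 46, and pairs across the stages 28 to 32. The 29 common genes held 23.9% ± 2.04 of the summed FPKM at 70 days and 28.3% ± 1.05 at 55 days (SD, n = 3). The 21 genes in the top 50 at 70 days only held 5.07% ± 0.49 at 70 days and 1.21% ± 0.09 at 55 days. The 21 in the top 50 at 55 days only held 1.43% ± 0.13 at 70 days and 6.26% ± 0.57 at 55 days. The last 2 sets were picked on these levels, so their difference is a description. The first of them includes c48570_g1, whose level rests on the 70-day replicate 2 alone. The second includes c155_g1, which was listed at 0 in the 55-day replicate 1 and was not called. At 85 days the set of the 70-day top list held 4.78% ± 0.49 in BDK and 4.91% ± 0.17 in DK. The set of the 55-day top list had shrunk to 0.65% ± 0.13 in BDK and 0.67% ± 0.04 in DK by then.

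A single gene, c116193_g1, had the highest mean level at both stages. It had 27782, 31818 and 31353 FPKM at 70 days, against 50071, 45240 and 52942 FPKM at 55 days. The groups did not overlap, with every 70-day library lower, but its log2 change of -0.65 ± 0.31 (SE) missed the threshold (limma's adjusted p = 0.092). It passed without scaling factors and with a filter of 5 FPKM, at 0.040 and 0.024, and reached 0.53 in the first set alone. It took up 2.96% of the summed FPKM at 70 days and 4.47% at 55 days, the highest mean share of any gene at either stage.

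The genes next in rank at 55 days gave way. Gene c35045_g1, second at 55 days, had 11421, 9292 and 14646 FPKM at 70 days, against 51177, 41514 and 38354 FPKM at 55 days. Gene c46731_g1 had 4637, 4119 and 4993 FPKM at 70 days, against 33628, 24185 and 42795 FPKM at 55 days. Gene c48906_g2 had 3239, 4053 and 4129 FPKM at 70 days, against 33625, 20209 and 37109 FPKM at 55 days. In all of them the highest 70-day library lay far below the lowest 55-day library. Limma gave log2 changes of -1.85 ± 0.43, -2.79 ± 0.27 and -2.90 ± 0.27 (SE) and adjusted p of 0.0036, 9.83e-06 and 7.07e-06 in the order named. Together with c116193_g1 and c58071_g1 they had the largest drops in mean FPKM. In rank they moved to 8, 16 and 17 at 70 days, so they remained abundant transcripts.

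In their place c53878_g1 and c42860_g1 came next in rank at 70 days, at 2 and 3. Gene c53878_g1 had 16881, 39885 and 29622 FPKM at 70 days, against 2274, 1712 and 4799 FPKM at 55 days, the largest gain of any gene. Its replicates were uneven at both stages, but the stages did not overlap, and its mean was 9.83-fold higher at 70 days (log2 change 3.40 ± 0.47 SE, limma's adjusted p = 0.00012). The ID belongs to an assembly cluster of 22 listed genes, which can share reads, so its own level is uncertain. Gene c42860_g1 was even between replicates, with 21491, 20253 and 23434 FPKM at 70 days, against 5171, 5906 and 5990 FPKM at 55 days. Its log2 change was 1.98 ± 0.26 (limma's adjusted p = 8.51e-05).

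Other leading genes rose about 2-fold. Gene c49885_g1 had 12733, 12692 and 14256 FPKM at 70 days, against 5913, 5296 and 8039 FPKM at 55 days (limma's adjusted p = 0.0030). Gene c53349_g2 had 14303, 12376 and 15519 FPKM at 70 days, against 7353, 9948 and 4774 FPKM at 55 days (limma's adjusted p = 0.021). The call of c53349_g2 was lost in 7 of the 18 other settings, among them without the 55-day replicate 1 or 3 or the 70-day replicate 3, with adjusted p up to 0.27. Gene c55991_g1, seventh at 55 days, was lower at 70 days, at 7744, 8181 and 7908 FPKM against 13541, 12555 and 15106 FPKM at 55 days (log2 change -0.74 ± 0.18, limma's adjusted p = 0.0048). That call was lost with only the 6 libraries in the model, where limma's adjusted p was 0.054. In the first set alone, with 1 library at 70 days, the calls of c35045_g1, c53878_g1, c49885_g1 and c55991_g1 were lost as well, at limma's adjusted p of 0.14, 0.057, 0.16 and 0.21.

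Several of the top genes stayed near their rank. Gene c57326_g1 had 16822, 24868 and 17433 FPKM at 70 days, against 24439, 23214 and 30404 FPKM at 55 days, and the groups overlapped. Gene c58071_g1, sixth at both stages, had 11553, 13405 and 16413 FPKM at 70 days, against 20976, 20203 and 22305 FPKM at 55 days. Gene c9191_g1 had 7576, 9544 and 10900 FPKM at 70 days, against 11530, 11830 and 13688 FPKM at 55 days. For the last 2 genes the stages did not overlap, yet limma's adjusted p was 0.085 and 0.23, and it was 0.28 for c57326_g1. Without scaling factors c58071_g1 was called lower (limma's adjusted p = 0.048). Gene c42705_g1, at 8948 ± 2299 FPKM at 70 days and 11184 ± 1517 at 55 days (SD, n = 3), did not pass either (limma's adjusted p = 0.40). For none of these 4 genes is a lack of change shown.

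**Figure D2:**
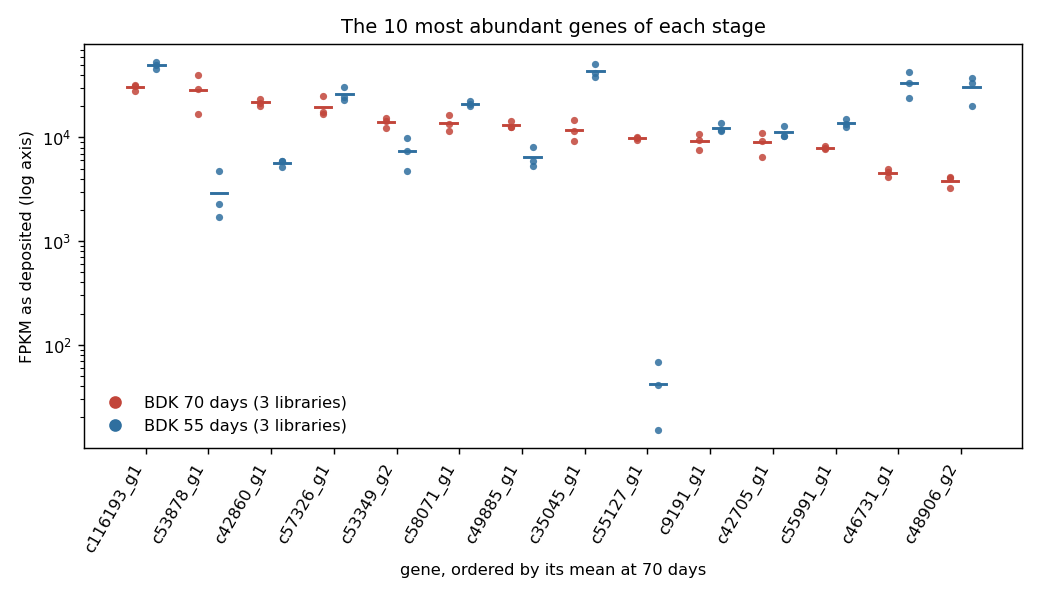
FPKM as deposited (log axis) of the 14 genes that were among the 10 most abundant at 70 or at 55 days, each point a library and each bar the mean of 3. Genes c35045_g1, c46731_g1 and c48906_g2 lie lower at 70 days, c53878_g1, c42860_g1 and c55127_g1 higher, and c57326_g1 and c42705_g1 overlap.

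A mean of 1000 FPKM or more was reached by 84 genes at 70 days and by 74 at 55 days, with 52 in common. Of the 52, 17 were called higher and 13 lower at 70 days, 10 and 10 of them by at least 2-fold, and 22 were not called. Over all genes compared 60.3% were called, 26.8% higher and 33.5% lower, and 24.4% were called with at least a 2-fold change. The 32 abundant at 70 days only were mostly not new, as 21 of them had 300 to 1000 FPKM at 55 days and 5 had 100 to 300. The 22 abundant at 55 days only had gone further down: 6 had 300 to 1000 FPKM at 70 days, 6 had 100 to 300, 8 had 10 to 100 and 2 were under 10. Of the 22, 21 were called lower, the direction that their choice fixes. Gene c155_g1, listed at 0 in the 55-day replicate 1, was not called. At 85 days 16 of the 32 were at 1000 FPKM or more in BDK and 17 in DK. None (0) of the 22 was back at that level in either, and 19 of them were under 100 FPKM in ripe BDK and 18 in DK.

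The abundant genes of 55 days that all but vanished included c52028_g1, c47732_g1 and c56883_g3. Gene c56883_g3, eleventh at 55 days, had 31.7, 23.1 and 27.9 FPKM at 70 days, against 8325, 7865 and 3933 FPKM at 55 days. Gene c52028_g1 had 3.12, 2.03 and 2.22 FPKM at 70 days, against 1954, 1842 and 1020 FPKM at 55 days. Gene c47732_g1 had 6.20, 5.17 and 10.8 FPKM at 70 days, against 2060, 1464 and 4634 FPKM at 55 days. The means of the 3 were 243-fold, 653-fold and 368-fold lower at 70 days in the order named, and limma's adjusted p was 1.81e-08, 1.59e-09 and 1.61e-06. The 55-day replicate 3 was the lowest of its group for c56883_g3 and c52028_g1 and the highest for c47732_g1. In rank, c52028_g1 moved to 22206 at 70 days, the farthest of the 21 genes that left the top 50.

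Further genes that fell most were at lower levels at 55 days. Gene c49572_g1 had 0.71, 0.25 and 0.82 FPKM at 70 days, against 771, 737 and 200.3 FPKM at 55 days. Gene c46489_g1 had 0.33, 0.05 and 0.04 FPKM at 70 days, against 382, 382 and 245 FPKM at 55 days. Gene c39059_g1 averaged 1.05 ± 0.35 FPKM at 70 days and 404 ± 146 at 55 days, and c49354_g1 averaged 1.23 ± 0.50 FPKM at 70 days and 409 ± 135 at 55 days (SD, n = 3). In each of these 4 genes the 55-day replicate 3 was the lowest of its group, while staying far above every 70-day library. The most even of the named genes that fell was c115151_g1, at 0.16, 0.05 and 0.09 FPKM at 70 days, against 176, 177 and 170 FPKM at 55 days. It also had the smallest standard error of the named genes that fell, with a log2 change of -7.20 ± 0.10 (limma's adjusted p = 5.10e-11).

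Gene c82334_g1 was listed at 0 in all 3 libraries of 70 days, against 129.5, 215 and 186 FPKM at 55 days. Gene c43835_g2 was likewise listed at 0 in all 3 libraries of 70 days, against 395, 33.4 and 519 FPKM at 55 days. Both were listed at 0 in all 6 libraries of 85 days as well, and limma's adjusted p was 8.81e-10 and 2.00e-05. In all, 191 genes had at least 1 FPKM in every 55-day library and were listed at 0 in every 70-day library. Their median level at 55 days was 2.67 FPKM, with 27 of them at 10 FPKM or more. At 85 days 18 of the 191 averaged 1 FPKM or more in BDK and 11 in DK. Since the files hold no counts, a listing at 0 cannot be given a limit.

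The largest rise among genes present at both stages was that of c55127_g1. It had 9380, 10037 and 9896 FPKM at 70 days, against 41.2, 15.2 and 68.8 FPKM at 55 days, so that a gene of rank 3618 at 55 days was ninth at 70 days. Its mean was 234-fold higher at 70 days (log2 change 8.12 ± 0.42 SE, limma's adjusted p = 1.48e-07). The 70-day replicates differed little, with an SD of 0.09 on the log2 scale, whereas the 55-day replicates spread with an SD of 1.09. At 85 days it averaged 10226 FPKM in BDK and 10457 in DK, the level already present at 70 days.

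A group of genes that rose to about 1000 FPKM behaved evenly at 70 days too. Gene c42284_g1 had 934, 1089 and 903 FPKM at 70 days, against 1.55, 1.13 and 14.4 FPKM at 55 days. Gene c54611_g1 had 922, 1230 and 1113 FPKM at 70 days, against 9.90, 11.0 and 22.3 FPKM at 55 days. Gene c54279_g1 had 1249, 1016 and 1152 FPKM at 70 days, against 9.44, 10.4 and 33.8 FPKM at 55 days. The 55-day replicate 3 held the highest 55-day value of all 3, and also of c55127_g1. Limma gave log2 changes of 7.80 ± 0.61, 6.26 ± 0.26 and 6.18 ± 0.37 (SE) and adjusted p of 2.19e-06, 3.70e-08 and 3.68e-07. By 85 days c42284_g1 averaged 2973 FPKM and c54611_g1 6382 in BDK, above all their 70-day values, and c54279_g1 averaged 1842.

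The other genes that rose most were uneven between the 70-day libraries. Gene c56441_g1 had 339, 233 and 42.4 FPKM at 70 days, against 0.67, 0.16 and 3.39 FPKM at 55 days. Gene c100359_g1 had 239, 137 and 28.2 FPKM at 70 days, against 0.28, 0 and 2.16 FPKM at 55 days. Both were highest in the 70-day replicate 1 and lowest in replicate 3, and limma's adjusted p was 0.00029 and 0.00040. They were again low at 85 days, at 5.88 and 6.03 FPKM on average in BDK and 0.50 and 0.20 FPKM in DK. Gene c46760_g1, one of the 5 most variable genes of 70 days, followed the same order of replicates, with 192, 165 and 29.99 FPKM at 70 days, against 13.7, 7.86 and 17.2 FPKM at 55 days (limma's adjusted p = 0.0012).

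The remaining 4 genes of the largest rises were listed at 0 in all 3 libraries of 55 days. Gene c12674_g1 had 478, 279.5 and 363 FPKM at 70 days, and c52497_g1 had 1082, 120.2 and 122 FPKM. Gene c42973_g1 had 166, 55.6 and 86.3 FPKM at 70 days, and c54152_g1 had 75.1, 120.6 and 45.6 FPKM. Limma's adjusted p was 0.0081, 0.020, 0.00052 and 0.0058 in the order named. The SE of the log2 change was wide, at 2.25, 2.52, 1.10 and 1.55. At 85 days in BDK, c12674_g1 had 0, 337 and 1270 FPKM and c52497_g1 had 0, 978 and 1707. Gene c42973_g1 had 0, 32.2 and 0 FPKM there, and c54152_g1 had 27.9, 36.3 and 0. Replicates of 1 group thus differed between 0 and a clear level for all 4, although c12674_g1 and c52497_g1 were above 0 in every DK library. The 70-day replicate 1 was the highest for all but c54152_g1. The call of c12674_g1 was lost with the library split in the model and in the first set alone (limma's adjusted p = 0.070 and 0.096). The call of c52497_g1 was lost under both, without a filter and without the 70-day replicate 1 (limma's adjusted p = 0.099, 0.11, 0.072 and 0.066). In all, 118 genes were listed at 0 in every 55-day library and had at least 1 FPKM in every 70-day library. Their median level at 70 days was 4.02 FPKM, and 19 of them were at 10 FPKM or more. At 85 days, 36 of the 118 averaged 1 FPKM or more in BDK and 35 in DK.

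**Figure D3:**
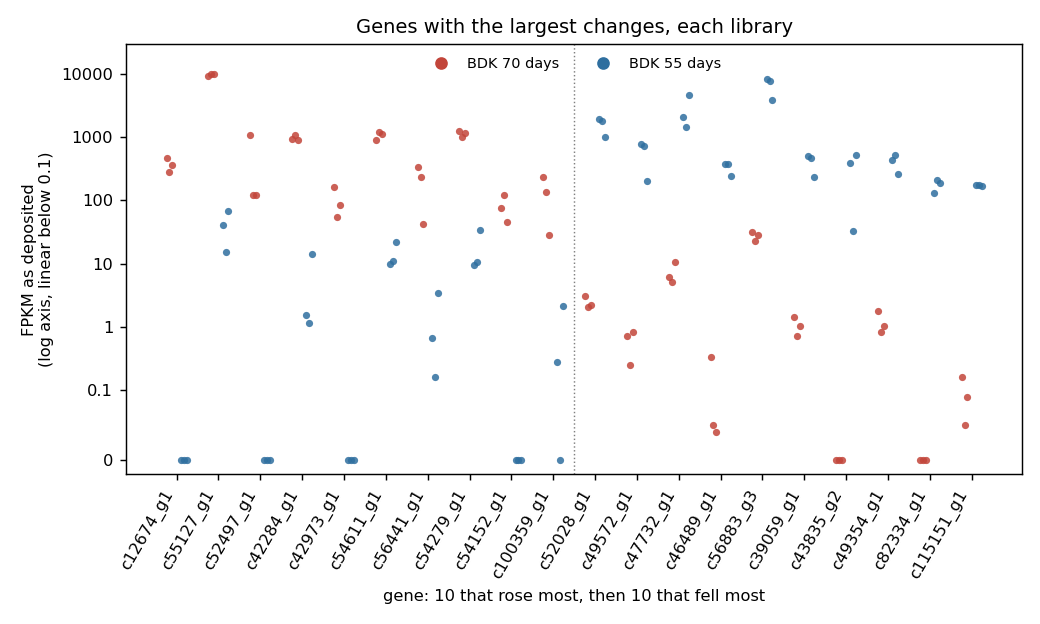
FPKM as deposited (log axis, linear below 0.1) in each library for the 10 genes that rose most (left of the dotted line) and the 10 that fell most, 3 points per stage. The genes were chosen for no overlap between the stages. On the left 4 of the genes are listed at 0 at 55 days, and 2 of those on the right are listed at 0 at 70 days.

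Small changes were found among the most abundant genes as well. Of the 52 genes at 1000 FPKM or more at both stages, those with the smallest changes were c49469_g1, c37664_g1, c56659_g2, c54652_g2 and c53262_g4. Gene c37664_g1 had 3328, 3767 and 4091 FPKM at 70 days, against 3722, 3819 and 3880 FPKM at 55 days. Gene c53262_g4 had 1153, 1067 and 1059 FPKM at 70 days, against 1064, 1005 and 1035 FPKM at 55 days. Their log2 changes were 0.02 ± 0.16 and 0.13 ± 0.08 (SE), and limma's adjusted p was 0.94 and 0.20. All 5 were picked for small change, and their direction depended on the scaling for 4 of them. The exception, c53262_g4, was called higher with upper-quartile factors (limma's adjusted p = 0.026). At 85 days c53262_g4 averaged 1066 FPKM in BDK and 1133 in DK, so it was near 1000 FPKM in every group, whereas c37664_g1 averaged 1541 FPKM in BDK and 1529 in DK.

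How often a gene was called, and in which direction, varied with its level. Genes were sorted by their mean over the 6 libraries. Calls covered 46.3% of genes under 3 FPKM, 55.7% from 3 to 10, 64.9% from 10 to 30, 72.0% from 30 to 100, 75.7% from 100 to 1000 and 70.9% of the 79 genes at 1000 or more. The error of the change moved with this: its median fell from 0.24 under 3 FPKM to 0.11 from 10 to 30 FPKM, while the median absolute log2 change was 0.62 in the lowest of these levels and 0.47 in the other. From 30 to 100 FPKM the median absolute change was 0.54, from 100 to 1000 it was 0.67, and at 1000 or more it was 1.04, where the error was 0.22. Changes of at least 2-fold were called for 51.9% of the genes at 1000 FPKM or more and for 20.6% to 32.5% of the genes of each lower level.

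From 3 to 1000 FPKM, the more abundant genes were, the more of the called ones were higher at 70 days. The share of higher genes among those called was 38.4% from 3 to 10 FPKM, 43.2% from 10 to 30, 53.5% from 30 to 100 and 66.7% from 100 to 1000 FPKM, beside 44.4% over all called genes. From 100 to 1000 FPKM that was 676 genes higher and 337 lower at 70 days, and from 3 to 10 FPKM 1037 higher and 1664 lower. At 1000 FPKM or more it was 35 higher and 21 lower. Under 3 FPKM 700 were higher and 1448 lower, but there the filter bears on the split, since genes could pass through 1 stage alone. Of genes under 3 FPKM with at least 1 FPKM in all 6 libraries, 175 were higher and 154 lower at 70 days. From 3 to 10 FPKM the same restriction left 39.5% higher, and from 100 to 1000 FPKM 67.0%. Over the 19 settings of the model, with genes sorted in the same way, the share of higher genes was 35.3% to 44.6% from 3 to 10 FPKM and 64.5% to 70.6% from 100 to 1000 FPKM. Sorted instead by their mean in the 6 libraries of 85 days, genes were called higher in 35.6% of calls from 3 to 10 FPKM, 69.7% from 30 to 100, 86.0% from 100 to 1000 (845 higher and 137 lower) and 93.0% at 1000 FPKM or more (53 higher and 4 lower). The size of the shift thus depends on which libraries set the level. The 85-day libraries follow those of 70 days in time, so sorting by them can itself favour genes higher at 70 days. How far it did so was not tested.

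Genes from 100 to 1000 FPKM held 31.3% ± 0.99 of the summed FPKM at 70 days and 26.6% ± 2.07 at 55 days (SD, n = 3). Genes at 1000 FPKM or more held 31.4% ± 2.25 at 70 days and 36.6% ± 1.15 at 55 days. For both, the libraries of the stages did not overlap, and the exact permutation test gave 0.1, the smallest two-sided p that 3 against 3 allows. Genes from 10 to 30 FPKM held 9.003% ± 0.41 at 70 days and 9.54% ± 0.86 at 55 days (exact permutation p = 0.4), a difference within the spread. From 30 to 100 FPKM the shares were 17.1% at 70 days and 16.5% at 55 days (exact permutation p = 0.8). From 3 to 10 FPKM they were 2.55% and 2.94%, and under 3 FPKM 0.63% and 0.81%. In these 2 lowest levels the libraries of the stages did not overlap (exact permutation p = 0.1 for each). The top 50 genes of a library held 26.5%, 30.01% and 30.7% of its FPKM at 70 days, against 36.1%, 34.3% and 33.6% at 55 days (exact permutation p = 0.1). The top 20 held 22.7% on average at 70 days and 27.9% at 55 days (exact permutation p = 0.1). For the top 200 the stages overlapped, at 38.3%, 41.3% and 42.8% at 70 days, against 46.3%, 44.2% and 42.5% at 55 days (exact permutation p = 0.2). The fewest genes that made up 50% of the FPKM numbered 563, 458 and 393 at 70 days, against 306, 385 and 503 at 55 days, and overlapped (exact permutation p = 0.4).

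**Figure D4:**
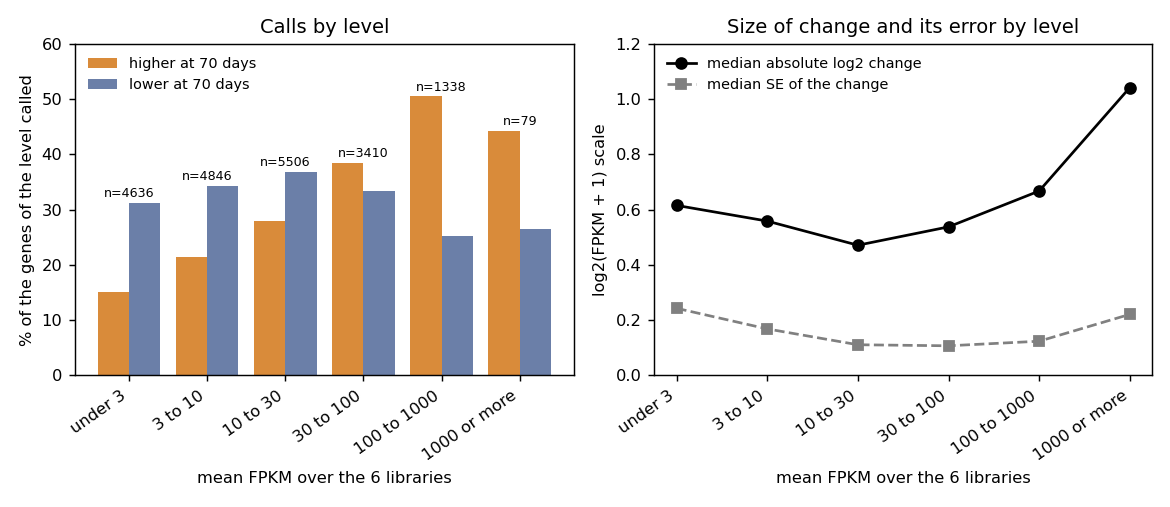
Left, the share of genes called higher or lower at 70 days in 6 classes of mean FPKM, with the number of genes of each class. Right, the median absolute log2 change and the median standard error of the change in the same classes, showing that the error was smallest from 10 to 1000 FPKM and that lower genes outnumbered higher ones up to 30 FPKM.

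Replicates of a stage were far closer to each other than to the other stage. The share of the summed FPKM that lay on different genes, taken as 0.5 times the sum of the absolute differences in share, was 37.0% to 40.9% for the 9 pairs across stages. It was 14.2% to 16.3% for the 3 pairs within 70 days and 9.90% to 19.9% for the 3 pairs within 55 days. Across genes, Pearson's r of the log2 levels was 0.805 to 0.819 between stages, 0.962 to 0.973 within 70 days and 0.928 to 0.965 within 55 days (genes are not independent replicates). The wide range within 55 days came from replicate 3. Replicates 1 and 2 had 9.90% of their FPKM on different genes, and replicate 3 differed from them by 17.7% and 19.9%. At 70 days no pair stood out by this share. By other measures replicates 2 and 3, both of the second set, were closer to each other than to replicate 1. Their r was 0.973, against 0.963 and 0.962 for the pairs with replicate 1. They had 4.75% of the genes more than 2-fold apart, against 6.39% and 6.67%.

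Per gene, the SD over the 3 libraries on the log2(FPKM + 1) scale had a median of 0.13 at 70 days and 0.16 at 55 days. Without the 55-day replicate 3 the median at 55 days was 0.098, and without single 70-day replicates it was 0.103 to 0.109 at 70 days, so the order of the stages turned with that library. Spread was widest for scarce genes, at 0.24 for 70 days and 0.26 for 55 days under 3 FPKM, and narrowest from 30 to 100 FPKM, at 0.10 and 0.12. At 1000 FPKM or more it widened again to 0.19 at both stages. An SD above 1, meaning replicates several-fold apart, was shown by 649 genes at 70 days and 915 at 55 days. In the 55-day libraries replicate 3 was the farthest from the middle value and the highest for 412 of the 915. In the 70-day libraries replicate 1 was so for 217 of the 649.

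**Figure D5:**
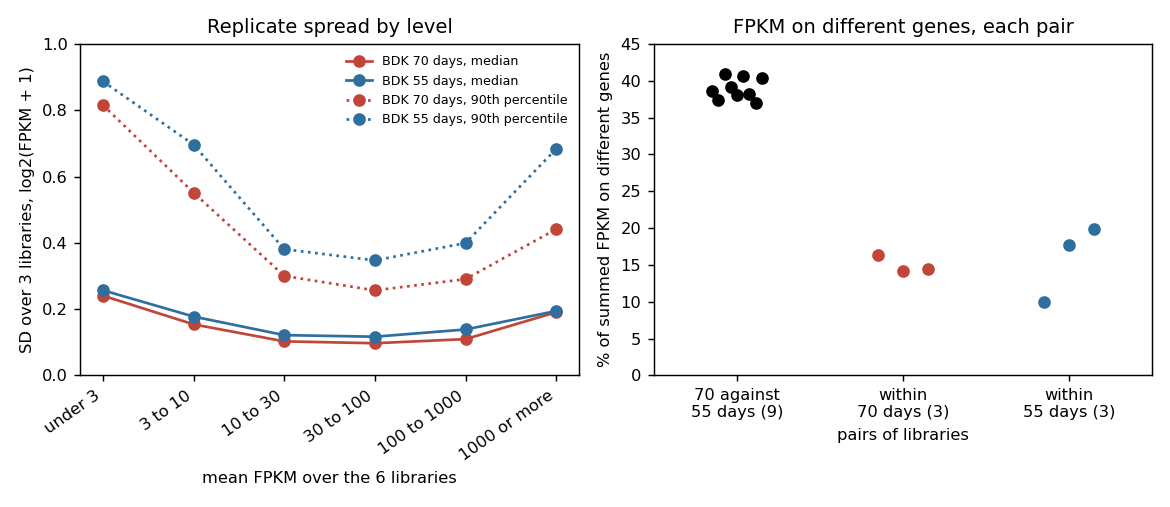
Left, the median and the 90th percentile of the SD over 3 libraries on the log2(FPKM + 1) scale, in 6 classes of mean FPKM, for 70 and 55 days. Right, the share of the summed FPKM that lies on different genes for each pair of libraries, where all 9 pairs across stages lie at 37.0% or above and all 6 pairs within a stage at 19.9% or below.

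Counting genes in which 1 library lay more than 2-fold above the others of its stage, while those were within 2-fold of each other, gave 519, 158 and 108 genes for the 70-day replicates 1, 2 and 3, against 137, 121 and 565 for the 55-day replicates 1, 2 and 3. Such genes held 2.37% of the FPKM of the 55-day replicate 3 and 0.11% to 0.56% in each other library. Of the 565 genes, 217 were more than 8-fold above the other 55-day libraries and 34 were at 100 FPKM or more. Leaving out the 55-day replicate 3 gave 11622 called genes. The direction matched for 10965 that were also called with all libraries.

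The most variable abundant genes were each carried by 1 or 2 libraries. Gene c155_g1 had 277, 62.0 and 0 FPKM at 70 days, against 0, 2240 and 3826 FPKM at 55 days, and was listed at 0 in 5 of the 6 libraries of 85 days. Genes c57199_g2, c57346_g1 and c56969_g3 were high in the 55-day replicate 1 alone of these 6 libraries. Gene c57199_g2 had 29.5, 26.0 and 17.5 FPKM at 70 days, against 1569, 26.7 and 21.9 FPKM at 55 days. Gene c57346_g1 had 50.2, 93.2 and 47.0 FPKM at 70 days, against 1058, 22.8 and 27.9 FPKM at 55 days. Gene c56969_g3 had 12.4, 10.2 and 6.74 FPKM at 70 days, against 498, 15.4 and 16.4 FPKM at 55 days.

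These 3 genes were high in all 6 libraries of 85 days, with lows and highs of 712 to 908 FPKM for c57199_g2, 353 to 664 FPKM for c57346_g1 and 237 to 314 FPKM for c56969_g3. The 55-day replicate 1 lay above every ripe library for them, while its fellow libraries did not. None of the 3 was called (limma's adjusted p = 0.20, 0.72 and 0.082), nor was c155_g1 (0.44). Without the 55-day replicate 1, c155_g1 was called lower at 70 days, at a log2 change of -6.74 (limma's adjusted p = 0.036). Without that library c57346_g1 was called higher at 70 days, at a log2 change of 1.28 (limma's adjusted p = 0.0032). Gene c56969_g3 was called lower without any single 55-day replicate, at -3.10 to -0.63 (limma's adjusted p = 0.015 to 0.034). Gene c56154_g2 was carried by the 55-day replicate 3, with 164, 123.9 and 62.8 FPKM at 70 days, against 30.2, 19.0 and 911 FPKM at 55 days.

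A gene carried by 1 of the 6 libraries was also found outside the genes compared. Gene c48570_g1, singled out after its values were seen, had 10665 FPKM in the 70-day replicate 2, 1.03% of that library's FPKM, and was listed at 0 in the 5 other libraries of the comparison. At 85 days it was listed at 666 FPKM in the BDK replicate 2 and at 0 in every other library. Its 70-day mean of 3555 FPKM counted it among the 32 genes abundant at 70 days only, where it was the 1 gene not tested. The remaining 31 were tested and called, in the direction that their choice fixes.

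Genes whose IDs share the part before the last number belong to 1 cluster of the assembly and may be copies, variants or fragments of 1 gene. In 572 (39.3%) of the 1457 clusters with at least 2 called genes, 1 gene was called higher and another lower at 70 days. In 353 all were higher and in 532 all were lower. Over all called genes 44.4% were higher, so called genes without any link would often differ in direction too. Whether opposite calls were more or less frequent within clusters than among such genes was not tested. Of the 572 clusters, the summed FPKM of the cluster was itself called in 327 and not in 245. The files hold no reads, so an exchange between 2 true genes and a shift of reads between assembled parts cannot be told apart. Summed by cluster, 9204 of 15232 clusters were called, 4164 higher and 5040 lower at 70 days.

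The 5 clusters with the largest opposite changes are given out of 352 in which a higher and a lower gene passed the rule for such pairs. The rule asked of each gene a mean of 10 FPKM or more in its higher stage and no overlap between the stages. The first was c52095, which lists 2 genes. Gene c52095_g1 had 19.3, 17.3 and 18.3 FPKM at 70 days, against 0.90, 0.43 and 1.30 FPKM at 55 days. Gene c52095_g2 had 4.19, 3.41 and 3.51 FPKM at 70 days, against 52.7, 62.4 and 41.7 FPKM at 55 days. On the log2 scale the change was 3.37 ± 0.18 for the first and -3.42 ± 0.16 for the second (SE; limma's adjusted p = 1.52e-07 and 7.61e-08). The cluster as a whole had 23.5, 20.8 and 21.8 FPKM at 70 days, against 53.6, 62.8 and 43.0 FPKM at 55 days, a lower sum at 70 days (limma's adjusted p = 6.66e-05). At 85 days c52095_g1 averaged 29.5 FPKM in BDK and 37.2 in DK, and c52095_g2 averaged 0.77 FPKM in BDK and 1.29 in DK, so the later libraries lay on the same side.

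In cluster c54226, of 7 listed genes, c54226_g6 averaged 22.9 ± 3.45 FPKM at 70 days and 3.78 ± 0.80 at 55 days, and c54226_g4 averaged 0.20 ± 0.03 FPKM at 70 days and 13.7 ± 2.30 at 55 days (SD, n = 3). The sums of the cluster overlapped between the stages, at 34.7, 42.3 and 31.5 FPKM at 70 days, against 29.4, 35.9 and 33.2 FPKM at 55 days (limma's adjusted p = 0.23 for the sum). In cluster c53109, c53109_g2 had 42.3, 26.2 and 40.4 FPKM at 70 days, against 3.67, 1.83 and 2.91 FPKM at 55 days, while c53109_g1 had 18.6, 17.6 and 21.2 FPKM at 70 days, against 135.8, 93.5 and 198 FPKM at 55 days. The sum of c53109 was lower at 70 days, at 60.8, 43.9 and 61.6 FPKM, against 139, 95.3 and 201.1 FPKM at 55 days (limma's adjusted p = 0.016). Clusters c53760 and c54324 held the other pairs shown, and the calls of both c54324 genes and of c53109_g1 were lost in the first set alone (limma's adjusted p = 0.051 to 0.14). Gene c53760_g5 averaged 11.97 FPKM at 70 days and 1.64 at 55 days, and c53760_g6 averaged 0.72 FPKM at 70 days and 24.6 at 55 days. Gene c54324_g5 averaged 17.9 FPKM at 70 days and 2.60 at 55 days, and c54324_g6 averaged 1.51 FPKM at 70 days and 11.4 at 55 days. The sum of c53760 was lower at 70 days, at 68.4, 54.8 and 46.4 FPKM, against 75.9, 67.9 and 94.96 FPKM at 55 days, with overlap (limma's adjusted p = 0.027). The sum of c54324 was higher at 70 days, at 388, 359 and 391 FPKM, against 281, 276 and 279.6 FPKM at 55 days (limma's adjusted p = 3.06e-05). The sum was called in 4 of these 5 clusters, beside 327 of the 572 clusters with opposite calls and 9204 of all 15232 clusters. That no gene of these pairs overlapped between the stages was a condition of their choice.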

How the data were processed

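RNA from frozen fruits was sequenced after library preparation by Illumina protocols, per the labels' protocols. What the authors deposited is an FPKM value for each gene in each library, to 2 decimals, per the file headers. For assembler, aligner, quantifier and filters the tools were not given in the sources used here. Groups and replicate numbers came from sample titles and days from the series' design text.

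FPKM was divided by trimmed-mean factors, which trim 30% of log ratios and 5% of levels from either side. The deposited values became log2(FPKM / factor + 1), fitted with limma 3.58.1 in R 4.3.3 with a mean-variance trend. The model held all 12 libraries as 4 groups and no covariate. Genes needed 1 FPKM in 3 of the 6 libraries compared. P-values were adjusted by Benjamini-Hochberg over the 19815 genes, with 0.05 as threshold. On this scale changes of low genes are understated. Medians, counts and exact permutation tests (two-sided) used Python 3.11.15 with scipy 1.17.1.

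Named genes were the 10 that rose and the 10 that fell most (10 FPKM or more in the higher stage, no overlap), the 10 most abundant per stage, the 5 largest gains and losses of mean FPKM, the 5 steadiest genes of 1000 FPKM or more, the 5 most variable per stage (100 FPKM or more) and 5 clusters with opposite calls. Members and rules were chosen with earlier results of these data known. The procedure was tested on simulated data in which 200 genes changed and no library split was built in. Far fewer genes changed there than were called here, so that test cannot show how well the scaling or the calls hold for these data. Alternatives were other scalings, pseudocounts and filters, the replicate number or library split in the model, and each library left out in turn. The fit of the first set alone and that of the 6 libraries with the block were added after seeing the data.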

Additional observations from a re-analysis of the deposited data

How the results depend on the processing

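The count of called genes stayed within 1.5 times of 11943 in 17 of 19 alternatives. The exceptions were a 2-fold minimum, with 4842 calls (1810 higher and 3032 lower at 70 days), and the first set alone, with 6801 (3353 higher and 3448 lower). Leaving out single libraries gave 10779 to 11622 calls, 4813 to 5245 of them higher and 5949 to 6377 lower, 28 to 30 shared genes among the top 50, 490 to 532 clusters with opposite calls, and a difference in the top 50's share of FPKM of -6.39 to -4.28 percentage points. The balance of directions rests on scaling: 44.4% of called genes were higher at 70 days with trimmed-mean factors, 48.6% with median-of-ratios, 50.7% with upper-quartile and 41.2% with no factors, where the median log2 change of all genes was -0.12, -0.06, -0.03 and -0.16. Top lists of 20 and 200 genes shared 12 and 112.

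The values gave no sign that the replicate numbers pair the libraries, but such weak correlations cannot show that the libraries are unpaired. Deviations from the stage means correlated at 0.04, -0.06 and -0.05 across genes for the same number. For different numbers they correlated at -0.10 to 0.12, and no library correlated best with its own number. With the replicate block 11844 genes were called, and 10673 with the block and only the 6 libraries, against 11701 without the block.

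The median SD at 70 days was 0.156 and 0.086 with pseudocounts of 0.1 and 5, 0.102 for genes of 10 FPKM or more and 0.139 without factors. At 55 days it was 0.104 with a pseudocount of 5 and 0.122 for genes of 10 FPKM or more. Single libraries left out gave 0.103 to 0.109 at 70 days and 0.098 to 0.156 at 55 days. The share of genes called under 3 FPKM was 53.4% with levels taken from the 85-day libraries and 41.8% with a pseudocount of 0.1. It was 53.8% from 3 to 10 FPKM with that pseudocount and 69.4% from 30 to 100 FPKM with the 85-day levels.

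Of the named genes' values under alternatives, 922 kept direction and side of the threshold, 23 lost the call, 8 gained one and 19 turned direction. All but 1 of the 19 were not called; the cause was not tested. Gene c49469_g1 turned to 0.067 with median-of-ratios and 0.10 with upper-quartile factors and to 0.048 with the 6 libraries, with or without the block, and ran from -0.11 to 0.15 with a library left out. Gene c37664_g1 turned to -0.035 without factors, -0.18 with the library split and -0.13 in the first set alone, and ran from -0.068 to 0.12 with a library left out. Gene c56659_g2 turned to 0.028 and c54652_g2 to 0.013 with upper-quartile factors, and in the first set alone c56659_g2 to 0.087 and c155_g1 to 0.48. With a library left out, c57199_g2 ran from -3.01 to 0.030, c57346_g1 from -1.47 to 1.28 and c56154_g2 from -0.59 to 2.19. Without counts, no limit can be set for a value of 0, and scarce genes carry the widest spread.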
